A study of Equus caballus with 12 samples.

Results

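Among the 294 known horse miRNAs of a small RNA table from lung, heart and liver, 6 belonged to families that are best known from neurons and endocrine cells, namely eca-miR-7, eca-miR-9a, eca-miR-138, eca-miR-153, eca-miR-129a-5p and eca-miR-129b-5p. They were taken by number, as every row named miR-7, miR-9, miR-124, miR-129, miR-137, miR-138, miR-153 or miR-375 with any letter or arm. These numbers were set with earlier results of these data known. miR-124, miR-137 and miR-375 were not analysed here. The libraries came from healthy Polish cold-blooded stallions aged 1 to 2 years, with 1 library per tissue from each of 4 horses (horses 27, 30, 32 and 34), which gives 12 libraries. The lung samples were taken from the caudal lobe of the right lung, the heart samples from the left ventricle and the liver samples from the right lobe. No treatment was given, and all tissues came from the same animals, which carried no induced genetic change. The study compared the tissues in pairs, and here the comparisons are given as lung versus heart, lung versus liver and heart versus liver.

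A miRNA is a short RNA that guides Argonaute proteins to messenger RNAs with a matching site and lowers their translation or stability. In rodents and humans, miR-7 is abundant in the hypothalamus, the pituitary and pancreatic islets, miR-9 acts in neural progenitors and the developing brain, and miR-138, miR-153 and miR-129 have been studied at synapses and in neuronal excitability. Whole pieces of lung, heart and liver hold nerve fibres and scattered endocrine cells, but the cell bodies of most neurons that supply them lie elsewhere. These were bulk libraries, in which more cells of one type and more miRNA per cell cannot be told apart.

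The deposited values are normalized counts, that is, reads divided by a size factor for each library. In each library the values stepped in whole multiples of the lowest value above 0 divided by 6, and the study listed a miRNA from 6 reads on, so any miRNA with under 6 reads appears as 0. On that basis the table held 3536536 to 7560746 reads per lung library, 8113895 to 9355513 per heart library and 3066869 to 8595569 per liver library. The lowest value that could be listed was 3.71 to 6.79 normalized counts in lung, 6.71 to 10.1 in heart and 3.96 to 11.1 in liver, with the highest floor in the liver of horse 27. The labelled tissues held their defining miRNAs. The striated muscle list summed to 8693 to 12572 normalized counts in lung, 5460419 to 8413936 in heart and 1511 to 6447 in liver, with miR-1 in the lead. The hepatocyte list, led by miR-122, summed to 58466 to 280577 in lung, 31224 to 153329 in heart and 1348482 to 1902402 in liver. In lung and heart miR-122 averaged only 1408 and 1518, against 132883 and 80195 for miR-148a of the same list. The epithelial list, led by miR-200b, summed to 66725 to 83600 in lung, 317 to 1008 in heart and 5369 to 7500 in liver. Markers of other cell types were found in all tissues. The leukocyte list, led by miR-146a, summed to 30464 to 89300 in lung, 11350 to 13414 in heart and 12462 to 21814 in liver, the endothelial list, led by miR-126-5p, to 336150 to 681325, 144408 to 553620 and 114762 to 181135 in that order of tissues, and the smooth muscle and mesenchymal list, led by miR-143, to 266744 to 396395, 361147 to 454021 and 167164 to 302441. Of the 294 known miRNAs, 256 reached 10 normalized counts in at least 4 libraries. For these, log2(normalized count + 1) was compared between tissues with limma, and p was adjusted over all 256 by the Benjamini-Hochberg method. A difference was called where the log2 fold change was 1 or more, up or down, and the adjusted p below 0.05. All 6 miRNAs passed the filter, but miR-138 and miR-153 reached 10 normalized counts in the 4 lung libraries alone and so were tested only because lung was high.

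As a group the 6 miRNAs were a small part of each library. Together they made up 0.0794 to 0.150% of the normalized counts of known miRNAs in lung, 0.0229 to 0.0577% in heart and 0.0565 to 0.116% in liver. Most of this was miR-7, which took 74.0 to 92.8% of the summed level in lung, 64.1 to 73.6% in heart and 96.5 to 98.6% in liver. The remaining miRNAs separated the tissues in different ways: miR-9a was highest in heart and lowest in liver, miR-138 was high in lung only, miR-153 was listed in lung only, and the miR-129 pair was low in all tissues.

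**Figure D1:**
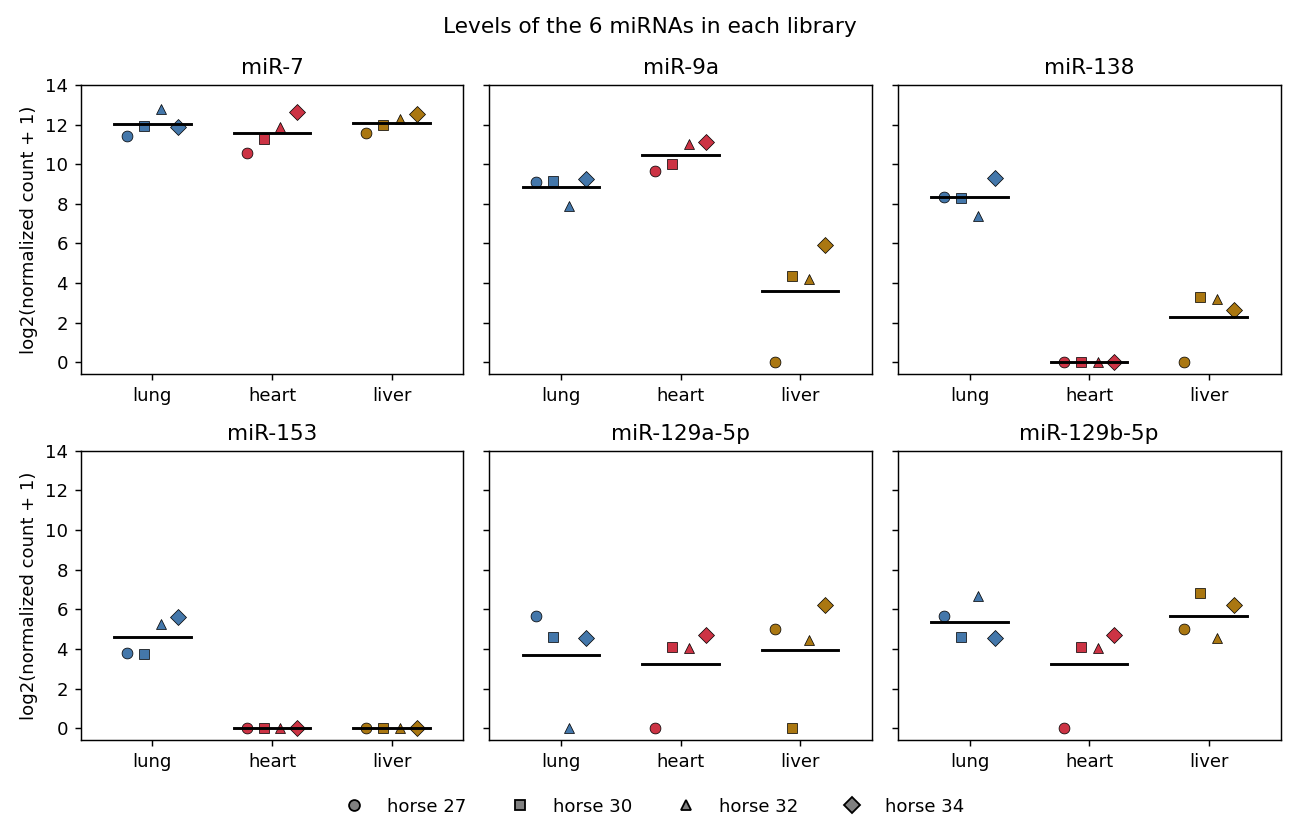
Levels of the 6 miRNAs in lung, heart and liver, 1 panel per miRNA, as log2(normalized count + 1) on the vertical axis. Each point is 1 library, the marker shape gives the horse and the black line is the mean of the 4 libraries on this scale; points at 0 had under 6 reads. miR-7 was at a similar height in all tissues, miR-9a fell away in liver, and miR-138 and miR-153 stood out in lung.

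miR-7 had by far the highest normalized counts of the group. It has 3 gene copies in the horse annotation looked up below, and in mammalian brain it is bound by the circular RNA CDR1as. Its level in horses 27, 30, 32 and 34 was 2788, 3862, 6985 and 3813 normalized counts in lung, 1497, 2494, 3727 and 6427 in heart, and 3071, 4010, 4961 and 5934 in liver. It averaged 4362 ± 1817 in lung, 3536 ± 2132 in heart and 4494 ± 1232 in liver (SD, n = 4 each), and the ranges overlapped in every pair of tissues. Among the known miRNAs of each library it held rank 51 to 74 in lung, 50 to 83 in heart and 49 to 70 in liver.

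No tissue difference of miR-7 was called. The log2 fold change was 0.42 for lung versus heart (95% confidence interval -0.52 to 1.36, adjusted p = 0.450), -0.08 for lung versus liver (-1.03 to 0.86, adjusted p = 0.893) and -0.50 for heart versus liver (-1.45 to 0.44, adjusted p = 0.336). These intervals leave room for differences of more than 1 on the log2 scale, so equal levels were not shown. They come from a fit without a horse term. With the horse added as a block, the interval for lung versus heart was narrower, at -0.26 to 1.10. No difference was called with the block either (adjusted p = 0.270, 0.845 and 0.173 in the same order). The order of the tissues also depended on the scaling. With each library rescaled to the same total, miR-7 averaged 6693 ± 2293 in lung, 2064 ± 927 in heart and 6404 ± 1884 in liver, and the highest heart library (3066) then lay below the lowest lung library (4099) and the lowest liver library (3956). On that scale the log2 fold change was 1.75 for lung versus heart (adjusted p = 0.00183), 0.05 for lung versus liver (adjusted p = 0.944) and -1.70 for heart versus liver (adjusted p = 0.00182). That rescaling moved the median of all 256 miRNAs by 1.18, 0.12 and -1.13 in the same comparisons. Scaling by a trimmed mean of log2 ratios (TMM) moved it by only -0.0038, -0.068 and 0.039. With TMM scaling miR-7 stayed uncalled, at 0.31, -0.15 and -0.47 (adjusted p = 0.581, 0.811 and 0.388 in limma).

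Of the 6 miRNAs, miR-7 had the largest share of its variation between horses. The horse took 62.0% of its sum of squares on the log2 scale and the tissue 13.3%, against medians of 6.44% and 73.2% over the 256 tested miRNAs. Horse 27 had the lowest level in all 3 tissues, and horse 34 the highest in heart and liver but not in lung. The horse term gave an unadjusted p of 0.0264 in limma (adjusted p = 0.911), and over all 256 miRNAs it passed in 0 after adjustment and in 14 at an unadjusted p under 0.05. The pattern by horse was noticed after the values were seen.

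miR-9a is known from vertebrate neural progenitors, where it acts on transcription factors of neuronal differentiation. Its level in horses 27, 30, 32 and 34 was 543.6, 571.9, 235 and 599.6 normalized counts in lung, 808, 1018, 2057 and 2255 in heart, and 0, 19.3, 17.6 and 59.4 in liver. All heart libraries were above all lung libraries, and all lung libraries above all liver libraries, with horse 32 well below the other lungs. It averaged 488 ± 170 in lung, 1534 ± 727 in heart and 24.1 ± 25.1 in liver (SD, n = 4 each). Liver of horse 27 was the shallowest library. At the levels in the livers of horses 30 and 32 it would have held 10.4 and 9.53 reads, and the part of depth in its value of 0 was not tested.

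Both differences of miR-9a from liver were called. The mean in lung was 20.2 times that in liver (log2 fold change 5.22, SE 1.004, adjusted p = 0.000984), and the mean in heart 63.7 times that in liver (log2 fold change 6.83, SE 1.004, adjusted p = 0.000119). Without the liver of horse 34, the highest liver, these ratios were 39.6 and 124.6 (log2 fold changes 5.99 and 7.60). Without the liver of horse 27 they were 15.2 and 47.8 (4.01 and 5.62), and both calls held with each library left out. Each difference was found in 4 of 4 horses, and the exact two-sided permutation test gave p = 0.0286, the smallest that 4 against 4 libraries allow. Between lung and heart the tests differed. The ratio of the means, lung over heart, was 0.318, the level was lower in lung in 4 of 4 horses and the exact permutation p was again 0.0286, but limma gave a log2 fold change of -1.61 (SE 1.004, 95% confidence interval -3.81 to 0.60, adjusted p = 0.210).

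The limma test uses 1 spread for all tissues. Without the liver of horse 27, which was at 0, the same log2 fold change of -1.61 had an adjusted p of 0.0223, and without horse 27 in any tissue it was -1.95 (adjusted p = 0.0258). A pseudocount of 10 gave -1.59 (adjusted p = 0.0324). In all, the lung versus heart difference was called in 4 of 25 alternatives and stayed uncalled in 21. Among the latter, it was -1.10 without horse 32 (adjusted p = 0.562) and -1.61 with a horse block (adjusted p = 0.169). TMM scaling gave -1.72 (adjusted p = 0.185). With the same total per library the log2 fold change was -0.28 (95% confidence interval -2.63 to 2.07, adjusted p = 0.871). On that scale miR-9a averaged 780 ± 328 in lung and 928 ± 408 in heart, with overlapping ranges of 324 to 1095 and 581 to 1438, against 33.5 ± 31.7 in liver. The high level in lung and heart relative to liver therefore stood on both scales, while the step between lung and heart was small with the same total per library. Of the cell type lists, 3 had their medians in the same tissue order: striated muscle (10734 in lung, 6586618 in heart, 3861 in liver), smooth muscle and mesenchymal (321125, 397153 and 247944) and red blood cell (40613, 107130 and 5825). The red blood cell list (miR-144 and, in the lead, miR-486-5p) summed to 25239 to 66840 in lung, 66906 to 160133 in heart and 4150 to 6888 in liver, with miR-144 at 0 in all heart libraries. The part of these cell types in the levels of miR-9a was not tested.

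**Figure D2:**
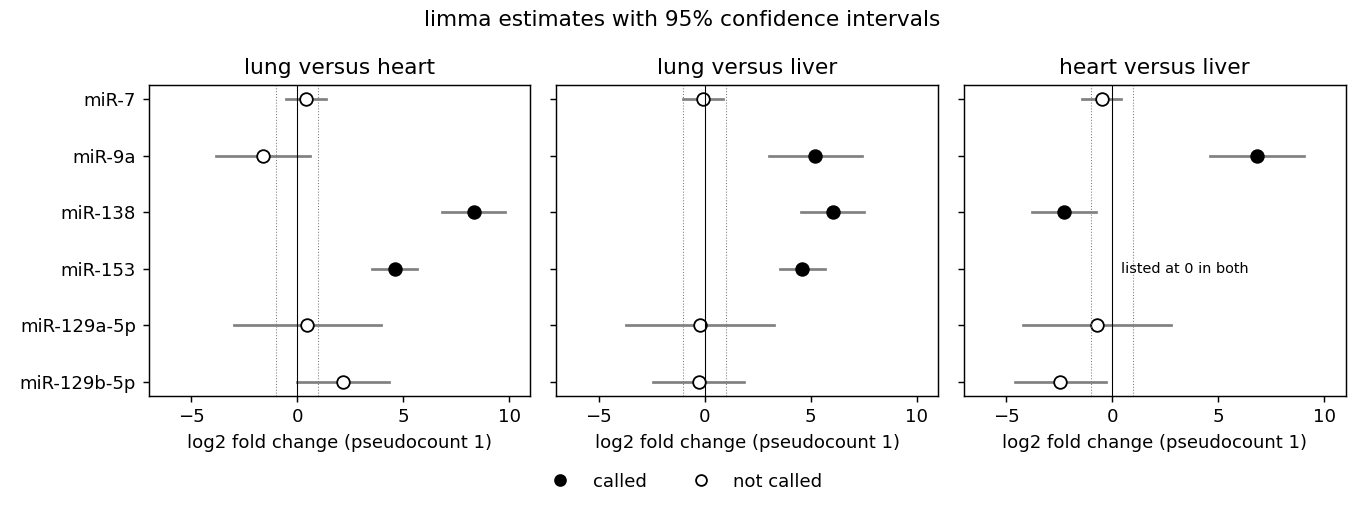
limma log2 fold changes of the 6 miRNAs (horizontal axis, pseudocount 1) in lung versus heart, lung versus liver and heart versus liver, with 95% confidence intervals as bars. Filled points were called, open points were not, and the dotted lines mark a log2 fold change of 1 in either direction. The called differences were those of miR-138 and miR-153 between lung and heart, these with miR-9a between lung and liver, and miR-9a and miR-138, in opposite directions, between heart and liver.

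miR-138 controls the size of dendritic spines in rat neurons. Here it was high in lung. The lungs of horses 27, 30, 32 and 34 had 321, 309, 166 and 628 normalized counts (mean 356 ± 195, SD, n = 4), from 236 to 555 reads. All 4 heart libraries were listed at 0, and the livers had 0, 8.85, 8.08 and 5.28, from 11, 11 and 8 reads in the 3 livers above 0. No lung library came near the values of the other tissues. The mean in lung was 64.1 times that in liver (log2 fold change 6.04, SE 0.68, adjusted p = 1.58e-05). Against heart no fold is given, since it was listed at 0; the fitted log2 fold change was 8.32 (SE 0.68, adjusted p = 1.24e-06), and its size depended on the pseudocount, with 5.04 at a pseudocount of 10. Since miR-138 entered the test through lung alone, the call adds little to the values themselves. The same holds for the exact permutation p, which was 0.0286 in both comparisons.

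Between heart and liver, miR-138 was called lower in heart (log2 fold change -2.28, SE 0.68, adjusted p = 0.0152), but the exact permutation p was 0.143 and the groups overlapped at 0. The call was made in 21 of 25 alternatives, among them without the liver of horse 27 (-3.04, adjusted p = 0.000161). It was lost with a pseudocount of 10 (-0.60, adjusted p = 0.168) and without horse 30, 32 or 34 (adjusted p = 0.102, 0.0794 and 0.0654). The difference rests on 8 to 11 reads in 3 livers. At the highest liver level, 8.85 normalized counts, the heart libraries would have held 5.26 to 7.92 reads, on either side of the 6 needed for listing, so its size could not be measured at this depth.

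miR-153 is encoded within the receptor-type tyrosine phosphatase genes PTPRN and PTPRN2, which code for proteins of dense-core secretory vesicles. It was listed in lung alone, at 12.9, 12.4, 37.9 and 47.5 normalized counts in horses 27, 30, 32 and 34, from 16, 20, 54 and 42 reads (mean 27.7 ± 17.8, SD, n = 4). All heart and all liver libraries were listed at 0. The lung levels of horses 27 and 30 were just above the floor of the shallowest liver library (11.1) and of the heart libraries (up to 10.1), so a level like theirs would have been near the limit in some of these libraries, whereas those of horses 32 and 34 would have been listed in all of them. The fitted log2 fold change was 4.60 for both lung versus heart (SE 0.48, adjusted p = 9.66e-06) and lung versus liver (SE 0.48, adjusted p = 8.10e-06), with 1.78 at a pseudocount of 10. miR-153 too was tested only because it reached 10 normalized counts in the lungs. Passing the filter through the 4 lungs alone already puts every lung above every heart and liver. That lung was higher in 4 of 4 horses (exact permutation p = 0.0286 in both comparisons) therefore adds no support. Heart and liver could not be compared for miR-153.

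The lung miRNAs stood beside large amounts of epithelial and multiciliated cell miRNAs. The 4 markers of multiciliated cells (miR-34b, miR-34c, miR-449a and miR-449b), led by miR-34c, summed to 18757, 26203, 36876 and 51216 normalized counts in the lungs of horses 27, 30, 32 and 34, to 17.8 to 402 in heart and to 0 to 118 in liver, with miR-449b at 0 in all heart and liver libraries. For miR-153, the lungs of horses 32 and 34 were the higher ones both for the miRNA and for this list. The 6 epithelial markers summed to 66725, 83600, 73067 and 70646 in the same lungs, and miR-141 was at 0 in all heart libraries. For miR-138, horse 34 was highest and horse 32 lowest, which is the order of neither list. The part of these cell types in the levels of miR-138 and miR-153 was not tested.

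The miR-129 pair comes from 2 genes, and in rodent neurons miR-129 represses the potassium channel Kv1.1. miR-129a-5p was at 49.9, 23.5, 0 and 22.6 normalized counts in the lungs of horses 27, 30, 32 and 34, at 0, 16.3, 15.6 and 25.2 in heart and at 31.4, 0, 20.6 and 74.6 in liver. miR-129b-5p was at 49.9, 23.5, 102 and 22.6 in lung, at 0, 16.3, 15.6 and 25.2 in heart and at 31.4, 112.6, 22.8 and 74.6 in liver. The same values recur because the 2 entries held exactly the same number of reads in 9 of 12 libraries, 8 of them above 0. They parted in the lung of horse 32 (0 and 146 reads), the liver of horse 30 (0 and 140 reads) and the liver of horse 32 (28 and 31 reads). Among 35511 pairs of known miRNAs screened for equal read numbers, 2 pairs were equal and above 0 in 4 or more libraries, this one and miR-671-3p with miR-671-5p (9 libraries). Equal numbers in so many libraries leave it uncertain how the reads of the miR-129 pair were divided, so miR-129a-5p and miR-129b-5p cannot be taken as independent measurements.

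**Figure D3:**
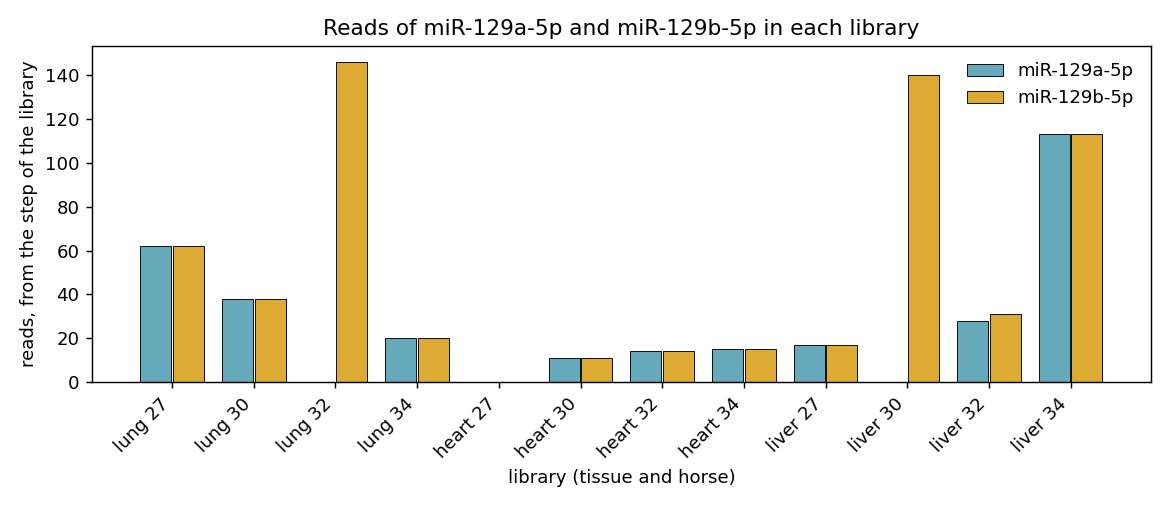
Reads of miR-129a-5p and miR-129b-5p (vertical axis, from the step of each library) in each of the 12 libraries, named by tissue and horse. Paired bars of the same height mark the 8 libraries with equal numbers above 0; the heart of horse 27 had 0 reads listed for both, and the entries parted in the lung of horse 32 and in the livers of horses 30 and 32.

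No difference of the miR-129 pair was called. For miR-129a-5p the adjusted p was 0.839, 0.933 and 0.733 for lung over heart, lung over liver and heart over liver, and its sign turned with single libraries left out in all 3 comparisons. miR-129b-5p had means of 49.6 ± 37.4 in lung, 14.3 ± 10.49 in heart and 60.4 ± 41.6 in liver (SD, n = 4 each). Its lowest level was thus in heart. The log2 fold change was 2.16 for lung versus heart (SE 0.98, adjusted p = 0.0920), -0.28 for lung versus liver (SE 0.98, adjusted p = 0.846) and -2.44 for heart versus liver (SE 0.98, adjusted p = 0.0527). The ranges overlapped in all comparisons, and the exact permutation p was 0.0857, 0.686 and 0.0571. The differences from heart passed with the same total per library, at 3.32 (adjusted p = 0.00505) for lung versus heart and -3.47 (adjusted p = 0.00300) for heart versus liver. Heart versus liver also passed with a pseudocount of 10 (-1.47, adjusted p = 0.0362) and without the heart of horse 34 (-2.94, adjusted p = 0.0344). Of 25 alternatives, however, lung versus heart stayed uncalled in 24 and heart versus liver in 22. TMM scaling was among these (adjusted p = 0.110 and 0.0597).

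Counted together, 2 of the 6 miRNAs were called higher in lung than in heart (miR-138 and miR-153) and 0 lower, where 38.7% of all tested miRNAs were called, 19.5% higher and 19.1% lower in lung. In lung versus liver, 3 of 6 were called, all higher in lung (miR-9a, miR-138 and miR-153), against 51.6% of all tested, 25% higher and 26.6% lower. In heart versus liver, 1 was called higher in heart (miR-9a) and 1 lower (miR-138), against 46.9%, 19.9% higher and 27% lower. The groups did not overlap for 3, 3 and 1 of the 6, where this held for 44.5%, 52.7% and 52.3% of all tested. The share called among the 6 was thus no higher than among horse miRNAs at large, although miR-138 and miR-153 had entered the test through lung alone and the miR-129 pair counts as 2. The median log2 fold change of the 6 was 1.33 for lung over heart, 2.26 for lung over liver and -0.60 for heart over liver, and 0.95, 0.90 and -0.60 with tissues at 0 set to their floor and pairs at or below the floor in both tissues left out. With miR-129a-5p left out it was 2.16, 4.60 and -0.50, and with miR-129b-5p left out 0.49, 4.60 and -0.50, so that nothing is read from it. Over all 256 miRNAs the median was 0, 0.08 and -0.23. With the deposited values, 50 miRNAs were higher and 49 lower in lung than in heart, 64 and 68 in lung than in liver, and 51 and 69 in heart than in liver. The same total per library turned these into 120 and 17, 69 and 65, and 27 and 136.

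The tissue profile of each miRNA was set beside those of the other tested miRNAs. The tissue shares (the mean of each tissue as a percentage of the sum of the 3 means) were compared, and the distance is the sum of the absolute differences divided by 2, in percentage points. miR-7 had 35.2% of its level in lung, 28.5% in heart and 36.3% in liver, and the nearest were miR-362-5p (2.03 points), miR-148b-5p (2.69) and miR-532-5p (2.87). miR-9a had 23.8%, 74.99% and 1.18%, nearest to miR-342-5p (4.57), miR-190a (4.81) and miR-486-5p (5.58). Of these, miR-486-5p is the abundant miRNA of red blood cells and muscle. miR-342-5p belongs to the leukocyte list, whose median sum was highest in lung and lowest in heart. miR-138 had 98.5% in lung, 0% in heart and 1.54% in liver, nearest to miR-141 (0.784), miR-449a (1.21) and miR-34b-5p (1.33). miR-153 had 100% in lung, nearest to miR-449a (0.708), miR-34c (0.758) and miR-34b-5p (0.798). Values of 0 stand for under 6 reads, so the lung shares of miR-138 and miR-153 are upper limits. The lung mean of miR-153 was 27.7, and the floors reached 10.1 in heart and 11.1 in liver. Its small distances therefore depend on taking 0 as the level. By tissue shares, the nearest of miR-138 and miR-153 were thus markers of epithelial and multiciliated cells from the lists above.

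For the miR-129 pair, whose shares rest on uncertain values, the nearest were miR-191a (2.37 points), miR-340-5p (2.42) and miR-500 (2.86) for miR-129a-5p, and miR-19b (4.69), miR-542-5p (5.53) and miR-10a (5.61) for miR-129b-5p. Likeness depended on the measure. By the root mean square difference of centred log2 values over the 12 libraries, 1 of the 3 nearest was shared for miR-9a (miR-486-5p) and for miR-138 (miR-141), and 0 for the other members. By that measure the nearest was miR-98 for miR-7 and for miR-129b-5p, miR-2483 for miR-9a, miR-200c for miR-138, miR-92b for miR-153 and miR-8917 for miR-129a-5p. The markers nearest to miR-153 by shares, miR-449a, miR-34c and miR-34b-5p, ranked 102, 173 and 159 by that measure. Those nearest to miR-138 by shares, miR-141, miR-449a and miR-34b-5p, ranked 2, 9 and 14.

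Other miRNAs known from neurons, glia or brain gave a wider view. A list of 17 numbers had 14 rows in the table, and 12 of these were tested. Against heart, 2 of the 12 were called higher and 4 lower in lung, beside 19.5% and 19.1% of all tested miRNAs. Against liver, 2 of 12 were higher and 0 lower in lung, beside 25% and 26.6%, while 3 were higher and 1 lower in heart, beside 19.9% and 27%. Calls of either direction were thus 6, 2 and 4 of 12, where 38.7%, 51.6% and 46.9% of all tested were called. Their median log2 fold change was -0.46, 0.11 and 0.86, against 0, 0.08 and -0.23 over all 256. The 3 most abundant were miR-128, miR-328 and miR-218. miR-128, a miRNA of mature neurons in mouse, had 19891 ± 9238 normalized counts in lung, 30933 ± 23484 in heart and 23431 ± 5575 in liver, with no call in any comparison.

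miR-328 had 726 ± 118 normalized counts in lung, 3606 ± 1779 in heart and 633 ± 179 in liver. It was lower in lung than in heart (log2 fold change -2.15, adjusted p = 0.000752) and higher in heart than in liver (2.38, adjusted p = 0.000230), and the call between lung and heart was lost with the same total per library (-0.82, adjusted p = 0.0837). miR-218, which is abundant in motor neurons of mouse, had 2114 ± 950 in lung, 1507 ± 590 in heart and 634 ± 103 in liver. It was higher in lung than in liver (1.61, adjusted p = 0.00648) and in heart than in liver (1.14, adjusted p = 0.0395), and the call between heart and liver was lost in 12 of 25 alternatives, with -0.05 (adjusted p = 0.915) at the same total per library. The call between lung and liver was lost without horse 32 or horse 34 (adjusted p up to 0.0682).

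The remaining calls of this list were few. miR-592 was listed in heart only, at 60.8 ± 26.7 normalized counts (32.0 to 87.2), and at 0 in all 4 lungs and all 4 livers (adjusted p = 2.43e-07 for lung versus heart and 1.49e-07 for heart versus liver). It passed the filter through the 4 heart libraries alone and so was tested only because heart was high. miR-135a had 883 ± 792 in lung, 95.3 ± 92.5 in heart and 728 ± 167 in liver, so that it was higher in lung than in heart (3.20, adjusted p = 0.00142) and lower in heart than in liver (-3.28, adjusted p = 0.000873). These calls of miR-592 and miR-135a held in all 25 alternatives, which adds little for miR-592, tested through heart alone. miR-149 (-1.21, adjusted p = 0.00120) and miR-338-5p (-1.64, adjusted p = 0.0331) were lower in lung than in heart, calls that the same total per library ended (0.11 and -0.33), and that of miR-338-5p was lost in 9 of 25 alternatives in all. miR-326 had 48.1 ± 33.9 in lung (0 to 79.8), 2.79 ± 5.59 in heart (0 to 11.2) and 0 in all livers. It passed the filter through 3 lungs and 1 heart, so it was tested largely because lung was high. The level of miR-326 was called higher in lung than in heart (3.60, adjusted p = 0.0430) and than in liver (4.50, adjusted p = 0.0121). The call against heart was lost in 16 of 24 alternatives. That against liver was lost in 3, without horse 27, 30 or 34 (adjusted p up to 0.0819).

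**Figure D4:**
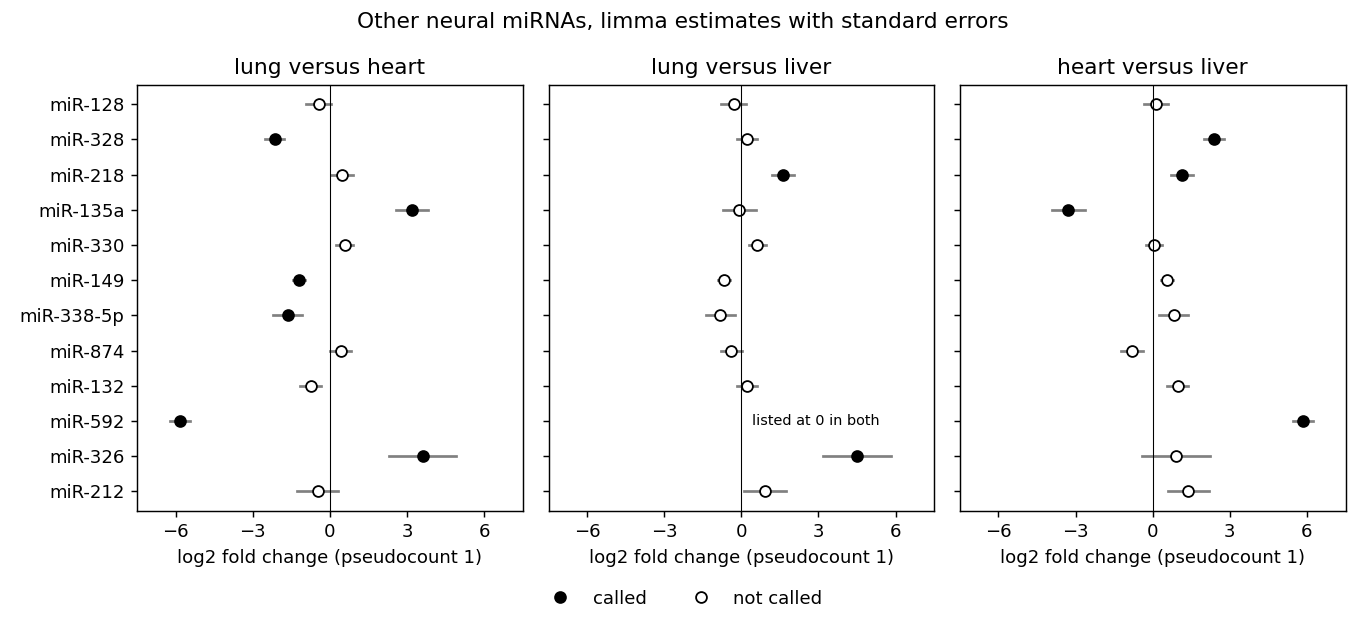
limma log2 fold changes (horizontal axis, pseudocount 1) with standard errors as bars for the 12 tested miRNAs of the wider neural list, ordered by mean level from the top. Filled points were called. Calls lay on both sides of 0 in lung versus heart, and miR-592 had the largest differences of the list, being listed at 0 in all lung and liver libraries.

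The gene copies of the 6 miRNAs were looked up in the RefSeq annotation of another horse assembly (TB-T2T), from which no positions are given. It holds 11 copies, 3 for miR-7, 2 each for miR-9a, miR-138 and miR-153, and 1 each for miR-129a and miR-129b. Of these, 5 overlap a protein-coding gene: a copy of miR-7 lies in HNRNPK, both copies of miR-153 in PTPRN and PTPRN2, a copy of miR-9a in MIR9-1HG and miR-129b in HSD17B12. Both copies of miR-138 lie outside protein-coding genes. The mature miRNA does not show which copy it came from, so the levels of miR-7, miR-9a, miR-138 and miR-153 above are sums over copies.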

How the data were processed

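Small RNA was sequenced from lung, heart and liver of 4 horses, and 1 table of the whole series with 12 libraries was used. By the study's methods, the authors trimmed the reads with Trim Galore to 18 to 25 nt, counted them with sRNAbench against miRBase and EquCab3.0 keeping miRNAs from 6 reads on, and normalized them with DESeq2, while the submitters' notes on processing list Trimmomatic and BWA beside bcl2fastq, FastQC and DESeq2. The deposited values are therefore a signal, in which the counts of each library were divided by a size factor. They are not raw counts, so no count test was run. Columns with the authors' own comparison of 2 tissues (log2 fold change, standard error, test statistic, p-values) were not used. From the step between values, 100% were whole multiples within 0.01 of a read.

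Known miRNAs that reached 10 normalized counts in 4 or more libraries (256) entered limma 3.58.1 in R 4.3.3 on log2(normalized count + 1), with a variance trend, a mean for each tissue and all 12 libraries in 1 fit. Each member was also put through a two-sided exact permutation test of 4 against 4 libraries. Figures and lists used Python 3.11.15, numpy 2.4.6, pandas 2.3.3 and matplotlib 3.10.9. The members were all rows of the stated numbers. In addition, the 3 tested miRNAs most like each member, the 3 most abundant of the wider neural list, the leading marker of each cell type list and any group of 5 or fewer are named. The members and lists were chosen with earlier results of these data known. Libraries with the same number came from the same horse and are thus paired. Deviations from the tissue mean had correlations of -0.27 to 0.15 (median -0.057) in 12 same-horse pairs and -0.27 to 0.36 (median 0.028) in 36 pairs of different horses. A horse block, other pseudocounts, filters and scalings, and each horse and library left out were run as alternatives.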

Additional observations from a re-analysis of the deposited data

Results flagged for a closer look

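The level of miR-9a in the lung of horse 32, at 235 normalized counts, lay apart from the other lungs, which had 543.6, 571.9 and 599.6. Its gap to the nearest lung was 0.846 of the whole range of the 4, above the critical value of Dixon's test at 95%. Of 15 sets of 4 libraries examined in this way, 1 stood out, and chance marks about 1 in 20. The same lung had the highest miR-7 of the 4 lungs (6985) and the lowest miR-138 (166).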

How the results depend on the processing

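In lung versus heart, lung versus liver and heart versus liver, 99, 132 and 120 miRNAs were called. Over 25 alternatives each, the counts stayed within 1.5 times these, at 87 to 104, 115 to 135 and 102 to 128 with a horse or library left out and up to 163 in heart versus liver with the same total per library. Similar counts did not always mean the same miRNAs. With the same total per library, 67 of the 99, 128 of the 132 and 96 of the 120 were called again. A horse block in the fit called 97, 131 and 116 and changed no call of the 6 miRNAs. The calls of miR-138 and miR-153 in lung versus heart, and of miR-9a, miR-138 and miR-153 in lung versus liver and of miR-9a in heart versus liver, were made in all 25 alternatives. For miR-138 and miR-153, which had entered the test through lung alone, this adds little. The direction of uncalled values turned for miR-129a-5p with a horse or library left out (-1.24 to 2.01 in lung versus heart, -1.82 to 1.20 in lung versus liver, -2.31 to 0.74 in heart versus liver), for miR-129b-5p in lung versus liver (-1.08 to 0.36), and for miR-7 in lung versus liver (-0.34 to 0.10, and 0.051 with the same total per library). The cause was not tested. The fit on the 2 compared tissues alone, which was added after the data were seen, called miR-9a lower in lung than in heart (-1.61, adjusted p = 0.0278). With the filter in all 4 libraries of a tissue, miR-129a-5p was not tested. The planned count test on recovered reads was not run, since the values are normalized. Levels under about 11 normalized counts in the shallowest library could not be seen.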
